A study of Mus musculus with 6 samples.

Results

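The 33 genes described here encode the enzymes that build cholesterol from acetyl-CoA, the sensors and carriers that set its level, the sterol-activated receptor LXR beta with several of its known targets, and the enzymes that build fatty acids. They were taken by name from a list of these pathways. Each was represented by the Ensembl transcript with the highest mean over 6 libraries. All 33 were found among the 23394 genes with such a transcript, and all 33 were among the 15619 genes that passed the filter on low values and were tested.

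The RNA came from hepatic F4/80+ cells, which were picked with magnetic beads out of digested livers of male C57BL/6 mice aged 3 months and kept on normal chow. F4/80 is a surface protein of mouse macrophages, and the labels give the cell type as macrophage. Every mouse in both groups had received carbon tetrachloride (CCl4) into the abdominal cavity, a liver toxin used to produce experimental fibrosis. The groups were 3 WT and 3 KO libraries. The labels name no deleted gene and no Cre driver, so no target gene could be set against the labels, and no untreated library was analysed here. Nothing in the labels says that the 3 libraries of a group came from separate animals, so the p-values measure only the spread between these libraries.

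Cholesterol synthesis runs from acetyl-CoA through mevalonate and isoprenoid diphosphates to squalene, which is closed into lanosterol and trimmed to cholesterol. When membranes hold little sterol, the INSIG proteins release the SREBP transcription factors, which then raise the genes of this route. When sterols are plentiful, oxysterols and sterol intermediates activate LXR, which raises the efflux pumps ABCA1 and ABCG1 and, through SREBP1c, fatty acid synthesis. Liver macrophages take up dead cells and lipoproteins and use both arms to keep their cholesterol in balance.

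Promoter sequence was searched near the members' starts for the textbook sites of SREBP and LXR, the sterol regulatory element and the LXR response element. The CCAAT box and the E-box were searched beside them and are not particular to these factors. RefSeq (GRCm38.p6) promoter windows matched 26 of the 33 members, with 31 start sites. The 250 bases before each start were searched on both strands for 4 motifs. The sterol regulatory element, TCACNCCAC, was found in 1 member, Hmgcs1, at 1 of the 31 start sites, against 1.05% of all 32851 start sites. The LXR response element was searched as a direct repeat of GGTNA, any 5 bases and GGTNA again. It was found in 3 members, Abca1, Srebf1 and Fasn, at 3 of the 31 start sites, against 0.621% of all start sites. The list was drawn up with known LXR targets in it, so this count is no test of the list. The CCAAT box, CCAAT, was found in 21 members and at 22 of their 31 start sites, against 33.8% of all start sites. The E-box, CACGTG, was found in Hsd17b7, Sc5d, Dhcr7, Insig1 and Abca1, at 5 of the 31 start sites, against 6.02% of all start sites. No matches of different motifs shared a base (0 pairs). A match describes the letters only, and a window without a match says nothing about the factor.

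The SREBP arm is represented by the window of Hmgcs1 at chr13:119690101-119690350 on the plus strand. The capitals mark the sterol regulatory element, 137 to 129 bases before the start.
Hmgcs1: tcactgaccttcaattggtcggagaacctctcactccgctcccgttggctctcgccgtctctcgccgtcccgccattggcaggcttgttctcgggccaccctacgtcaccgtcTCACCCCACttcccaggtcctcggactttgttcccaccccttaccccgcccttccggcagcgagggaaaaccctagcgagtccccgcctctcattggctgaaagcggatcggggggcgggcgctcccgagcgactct

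The LXR arm is represented by Abca1 (chr4:53159896-53160145, minus strand), Srebf1 (chr11:60210472-60210721, minus strand) and Fasn (chr11:120824548-120824797, minus strand). The Srebf1 window lies before an internal start of the gene. The capitals mark the LXR response element, which reads on the strand opposite to the gene in all 3 windows. On that strand Abca1 and Fasn held the identical run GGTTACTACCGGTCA, and Srebf1 held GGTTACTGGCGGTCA. The match stood 67 to 53 bases before the start in Abca1, 182 to 168 in Srebf1 and 225 to 211 in Fasn.
Abca1: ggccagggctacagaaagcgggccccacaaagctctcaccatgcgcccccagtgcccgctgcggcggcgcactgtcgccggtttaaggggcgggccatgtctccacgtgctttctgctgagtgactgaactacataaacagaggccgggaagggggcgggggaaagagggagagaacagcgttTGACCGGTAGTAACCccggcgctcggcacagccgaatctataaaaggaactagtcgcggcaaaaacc
Srebf1: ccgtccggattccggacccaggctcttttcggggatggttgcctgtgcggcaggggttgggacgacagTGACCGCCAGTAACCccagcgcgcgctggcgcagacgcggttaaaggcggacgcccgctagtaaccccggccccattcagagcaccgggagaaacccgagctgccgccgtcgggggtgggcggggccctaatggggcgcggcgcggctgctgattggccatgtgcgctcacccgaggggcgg
Fasn: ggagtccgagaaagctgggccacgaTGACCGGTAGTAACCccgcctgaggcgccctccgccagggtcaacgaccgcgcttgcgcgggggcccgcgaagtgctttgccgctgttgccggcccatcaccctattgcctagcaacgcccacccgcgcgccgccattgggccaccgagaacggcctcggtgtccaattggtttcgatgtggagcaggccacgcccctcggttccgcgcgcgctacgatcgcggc

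Mylip, the LXR target with the smallest p below, is shown for contrast (chr13:45389492-45389741, plus strand). Its window held no LXR response element of this spelling and 3 CCAAT boxes, which are in capitals and read on the opposite strand.
Mylip: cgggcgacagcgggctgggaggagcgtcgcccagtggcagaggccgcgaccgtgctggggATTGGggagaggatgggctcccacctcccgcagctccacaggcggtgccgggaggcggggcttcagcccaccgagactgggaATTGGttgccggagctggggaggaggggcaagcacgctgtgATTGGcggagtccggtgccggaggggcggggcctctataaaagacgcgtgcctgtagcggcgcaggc

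The values are the authors' normalised counts per transcript, and the recovered reads over the kept transcripts ran from 10790842 to 22157238 per library. The authors' factors made 1 read worth 0.562 to 1.49 normalised counts. All 14 macrophage markers were detected in every library. Their summed normalised counts were 90910 to 165604 in WT and 82904 to 95015 in KO. Of the 14, 0 passed the test, and the median log2 change was -0.07. Single macrophage markers ran from -1.63 to 1.12, with 4 above 0 and 10 below. At an unadjusted p under 0.05 by limma were 4 of them (1 higher, 3 lower), against 18.0% of all genes. Most markers of other liver cells had a log2 change above 0. Over all genes tested, 54.2% were above 0 and 2.44% passed, with 2.09% passing as higher in KO. All 20 hepatocyte markers had a log2 change above 0, 8 passed, the median was 1.73, and the sums were 14355 to 47974 in WT and 67295 to 120665 in KO. All 16 endothelial markers were above 0 and 6 passed, with a median of 1.44 and sums of 42793 to 81827 in WT and 91356 to 198898 in KO. Stellate cells and myofibroblasts were read by 16 markers, of which 14 were above 0 and 1 passed, with a median of 0.71 and sums of 21721 to 30663 in WT and 36484 to 64610 in KO. The 8 cholangiocyte markers had a median of 0.96 and sums of 604 to 1855 in WT and 1933 to 2583 in KO, with 0 passing. The 7 erythroid markers had a median of 3.20 and sums of 2221 to 33339 in WT and 30738 to 268695 in KO, also with 0 passing, and 1 of them was at 0 in a WT library. The neutrophil and lymphocyte lists of 8 genes each had medians of -0.09 and 0.10, with 0 passing. The part of these other cells in the results below was not tested.

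None of the 33 members passed the test for KO against WT (0 of 33, limma on log2(normalised count + 1), adjusted p under 0.05). Over all genes tested, 381 of 15619 passed (2.44%), of which 326 were higher in KO (2.09%) and 55 lower (0.352%). The median log2 change of the members was -0.01, against 0.05 over all genes. Their log2 changes ran from -0.83 for Scd2 to 0.68 for Tm7sf2. Of the members, 15 had a log2 change above 0 and 18 below, whereas 54.2% of all genes were above 0. The median size of the log2 change without its sign was 0.22 for the members and 0.32 for all genes. In bulk RNA of this kind, fewer cells of a type and less RNA per cell cannot be told apart.

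At an unadjusted p under 0.05, 5 members were found, against 18.0% of all genes. Tm7sf2 and Mylip were higher in KO (12.1% of all genes were higher at this level), and Sqle, Cyp51 and Scd2 were lower (5.90% of all genes). With edgeR's test 6 members were under this level, against 2840 of the 15619 genes tested. In 4 members the WT and KO libraries did not overlap, against 22.9% of all genes. Those were Tm7sf2 and Mylip, higher in KO (13.7% of all genes), and Cyp51 and Scd2, lower in KO (9.25% of all genes). The 95% interval of the log2 change lay inside -1 to 1 for 25 members. For the other 8 (Idi1, Sqle, Tm7sf2, Msmo1, Insig1, Mylip, Scd1 and Scd2) it reached 1 in size on the side of the estimate, so a doubling or halving lay within the interval.

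**Figure D1:**
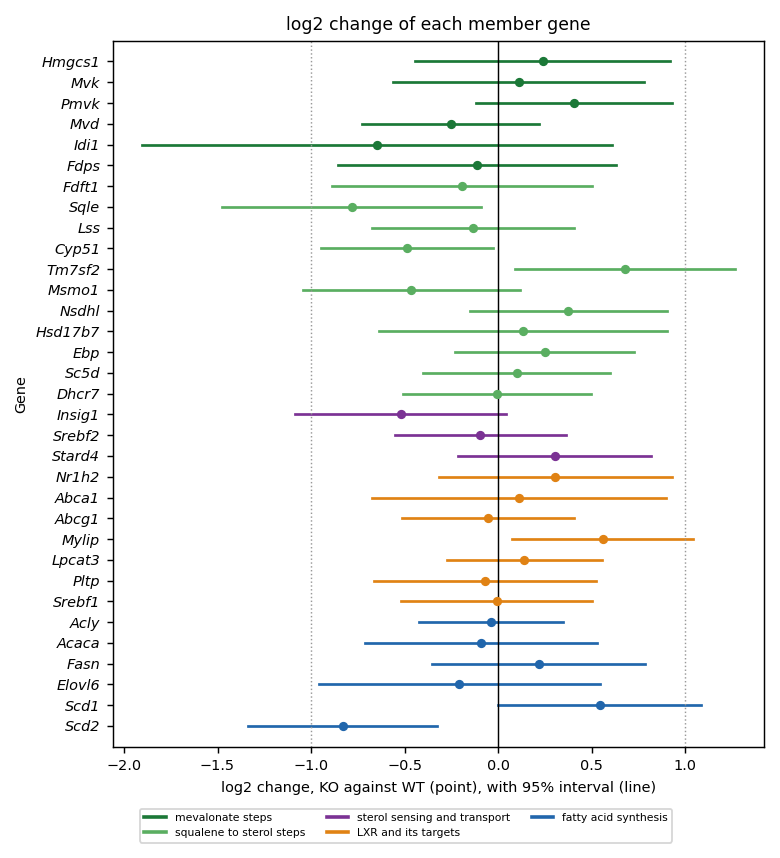
log2 change of each of the 33 member genes in KO against WT (point) with its 95% interval from limma (line), coloured by role; dotted lines mark -1 and 1. The points run from -0.83 for Scd2 to 0.68 for Tm7sf2, and the intervals of 25 genes stay between the dotted lines.

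**Figure D2:**
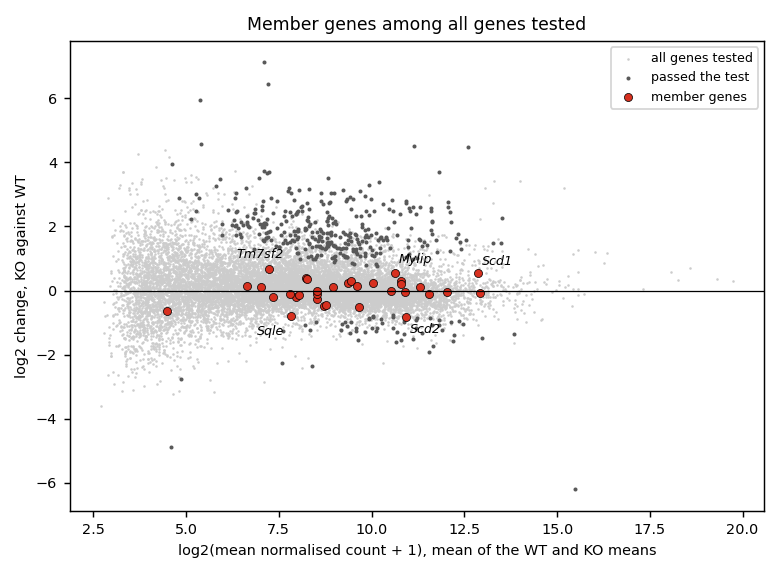
log2 change in KO against WT (vertical) against the log2 of the mean normalised count + 1 (horizontal), for 15619 genes in pale grey, the 381 that passed the test in dark grey and the 33 members in red. The members lie close to the line at 0, and none of them is among the genes that passed.

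The levels of the members spanned a wide range. Per kilobase of transcript, the WT mean was highest for Pltp, at 3588 ± 744 normalised counts per kilobase (SD, n = 3), and Pltp was also the highest in KO, at 3448 ± 986. Pltp is the phospholipid transfer protein that remodels lipoproteins. Scd1 followed at 1277 ± 331 in WT and 1833 ± 263 in KO, then Acly at 955 ± 43.3 and 931 ± 84.6. Acly makes cytosolic acetyl-CoA from citrate, the shared substrate of sterol and fatty acid synthesis. Acly in WT lay within the spread of Scd1, and Nr1h2 came next at 826 ± 259 and 1001 ± 231, so the order of these neighbours was not fixed beyond their spread. The lowest member in both groups was Idi1, at 8.78 ± 2.80 in WT and 5.33 ± 0.981 in KO. Among the 33, Scd2 ranked 6 in WT and 15 in KO, and Insig1 8 and 16. These ranks describe the group means of 3 libraries each.

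**Figure D3:**
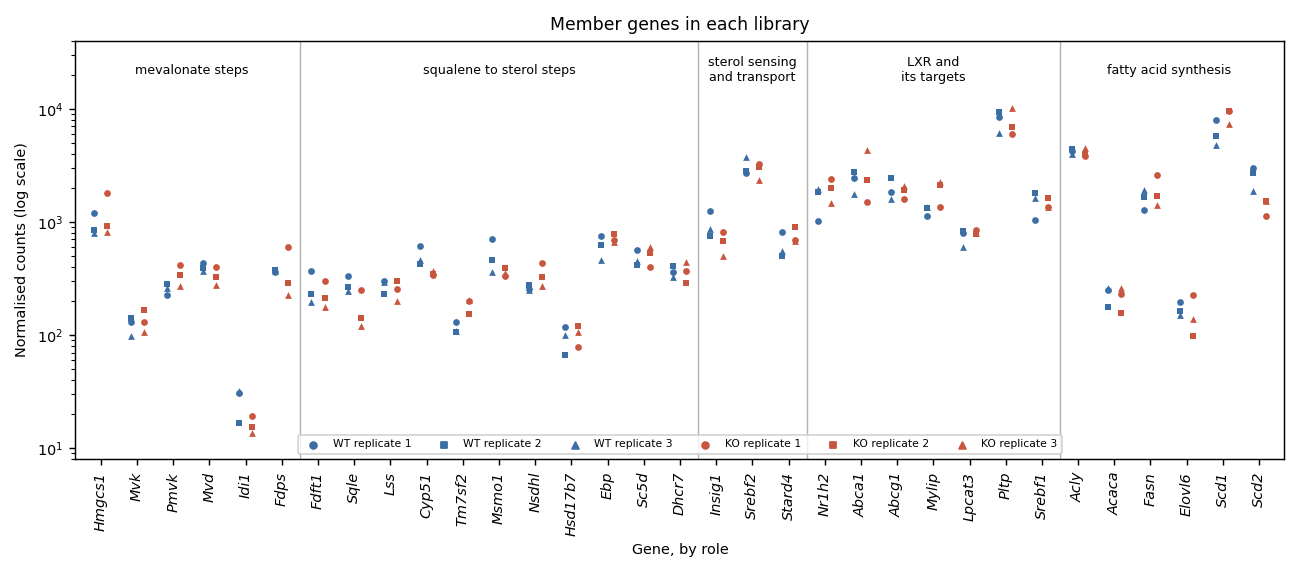
Normalised counts (log scale) of the 33 member genes in each of the 3 WT libraries (blue) and 3 KO libraries (red), with a marker shape for each replicate number and genes ordered by role. Idi1 is the lowest gene in every library, and the colours separate without overlap in 4 genes: Cyp51, Tm7sf2, Mylip and Scd2.

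Of the 6 genes of the mevalonate steps, 3 had a log2 change above 0 and 3 below, with a median of -0.00 and 0 passing. Pmvk, the kinase that adds a phosphate to phosphomevalonate, held 225, 284 and 262 normalised counts in WT libraries 1 to 3 and 419, 340 and 272 in KO libraries 1 to 3. The KO libraries 1 and 2 lay above all WT libraries and the third among them, and the log2 change was 0.40 (SE 0.233, adjusted p = 0.414 by limma). Mvd, the decarboxylase of the next step, held 433, 389 and 370 in WT and 404, 325 and 279 in KO. Here KO libraries 2 and 3 lay below all WT libraries and KO library 1 within their range, for a log2 change of -0.25 (SE 0.211, adjusted p = 0.594 by limma). Idi1, which interconverts the C5 isoprenoid diphosphates, held 30.9, 16.8 and 32.0 in WT and 19.4, 15.5 and 13.5 in KO. With 13 to 57 reads per library it was the most thinly counted member, and its log2 change of -0.65 had a SE of 0.558 (limma adjusted p = 0.607).

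The other genes of these steps gave smaller log2 changes. Hmgcs1, an early synthase of the route whose promoter is printed above, ranged from 800 to 1193 in WT and from 811 to 1798 in KO, with a log2 change of 0.24 (SE 0.302). Its KO library 1 was above every WT library and the other KO libraries lay inside the WT range. Mvk, mevalonate kinase, ranged from 98.8 to 143 and from 107 to 168, with a log2 change of 0.11. Fdps, the farnesyl diphosphate synthase, was even in WT, at 364 to 374, and scattered in KO, at 228 to 603, with a log2 change of -0.11. Over 81.3% of its length the kept Fdps transcript overlaps the gene model Gm43738 on the same strand, which held 523 to 830, so the genes could share reads and the value of Fdps is uncertain.

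Of the 11 genes from squalene to cholesterol, 5 were above 0 and 6 below, with a median of -0.00. None passed and 3 had an unadjusted p under 0.05, against 18.0% of all genes. Sqle, squalene epoxidase, a rate-limiting step of the late route (chromosome 15, 59315077 to 59331192), held 331, 265 and 247 normalised counts in WT and 249, 141 and 120 in KO. KO libraries 2 and 3 lay well below all WT libraries, while KO library 1 was between the lowest and the middle WT library. The log2 change was -0.78 (SE 0.307, unadjusted p = 0.030, limma adjusted p = 0.218). Cyp51, the demethylase that acts on lanosterol (chromosome 5, 4081145 to 4104746), held 611, 425 and 458 in WT and 337, 347 and 369 in KO. All KO libraries were below all WT libraries, and the 3 KO values were close together, for a log2 change of -0.49 (SE 0.204, unadjusted p = 0.040, limma adjusted p = 0.250).

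Tm7sf2, a reductase that acts on the product of Cyp51 (chromosome 19, 6062821 to 6068373), went the other way. It held 132, 106 and 109 in WT and 200, 155 and 205 in KO, so that every KO library was above every WT library. The log2 change was 0.68 (SE 0.261, unadjusted p = 0.028, limma adjusted p = 0.210). Neighbouring enzymes of the route thus gave log2 changes of opposite sign, and none of the 3 passed after adjustment over all genes.

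Among the other late enzymes, Msmo1, a methylsterol oxidase, had the log2 change next in size below 0. It ranged from 363 to 714 in WT and from 331 to 388 in KO, with a log2 change of -0.46 (SE 0.258). Nsdhl, the sterol dehydrogenase that works with it, ranged from 249 to 277 and from 270 to 438, with a log2 change of 0.37. Ebp, a sterol isomerase, ranged from 464 to 753 and from 671 to 785, with a log2 change of 0.25. Fdft1, squalene synthase, gave -0.19, but 27.0% of its transcript overlaps Ctsb on the opposite strand, whose values of 32083 to 62306 dwarf the 176 to 371 of Fdft1. The sources used here do not say whether the counting used strand. Lss, lanosterol synthase, gave -0.14, Hsd17b7, a ketoreductase, 0.13, Sc5d, a sterol desaturase, 0.10, and Dhcr7, the reductase of a last step, -0.00. The WT and KO libraries of these last 4 genes overlapped.

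Of the 3 genes of sterol sensing and transport 1 was above 0, and the median was -0.10. Insig1, the membrane anchor that holds SREBP back and is itself a known SREBP target (chromosome 5, 28071363 to 28078662), held 1259, 751 and 859 in WT and 812, 674 and 501 in KO. KO libraries 2 and 3 were below all WT libraries and KO library 1 was within their range, for a log2 change of -0.52 (SE 0.251, unadjusted p = 0.067, limma adjusted p = 0.322). Stard4, a soluble sterol carrier, held 823, 499 and 554 in WT and 699, 894 and 683 in KO. Its groups overlapped, and the log2 change was 0.30 (SE 0.229, adjusted p = 0.554 by limma). Srebf2, which encodes the main SREBP of sterol synthesis, held 2703, 2851 and 3728 in WT and 3258, 3057 and 2366 in KO. Its log2 change of -0.10 had a 95% interval of -0.55 to 0.36 (SE 0.203, adjusted p = 0.862 by limma).

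Of the 7 genes of LXR and its targets, 4 were above 0 and 3 below, with a median of 0.11 and 0 passing. Mylip, a ubiquitin ligase that removes lipoprotein receptors (chromosome 13, 45389742 to 45412022), held 1139, 1325 and 1344 normalised counts in WT and 1369, 2112 and 2242 in KO. Every KO library was above every WT library, although KO library 1 exceeded the highest WT library only narrowly. The log2 change was 0.56 (SE 0.215, unadjusted p = 0.028, limma adjusted p = 0.210). Without KO replicate 1 the log2 change of Mylip was 0.78 and it passed (limma adjusted p = 0.0429), in a fit that called 4.99% of 16220 genes. Nr1h2, the LXR beta receptor itself, held 1027, 1841 and 1950 in WT and 2378, 1978 and 1482 in KO. Its groups overlapped, with WT library 1 as the lowest, and the log2 change was 0.31 (SE 0.277, adjusted p = 0.626 by limma). Lpcat3, which loads polyunsaturated chains onto phospholipids, held 791, 832 and 599 in WT and 845, 788 and 792 in KO, for a log2 change of 0.14 (SE 0.185, adjusted p = 0.755 by limma). Over 14.6% of its length it overlaps Emg1 on the opposite strand.

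The efflux pumps, the best known LXR targets in macrophages, differed more within the KO group than between the groups. Abca1, with an LXR response element in its window above, held 2465, 2793 and 1770 in WT and 1517, 2339 and 4325 in KO. KO library 1 was the lowest of all 6 libraries and KO library 3 the highest, and the log2 change was 0.11 (SE 0.349). Abcg1 ranged from 1591 to 2423 in WT and from 1581 to 2085 in KO, with a log2 change of -0.05. Pltp ranged from 6163 to 9398 in WT and from 6004 to 10162 in KO, with a log2 change of -0.07, and 22.2% of its transcript overlaps Ctsa on the opposite strand, which held 7169 to 10375. Srebf1, which encodes the SREBP of fatty acid synthesis, ranged from 1039 to 1812 and from 1361 to 1639, with a log2 change of -0.01 and a 95% interval of -0.52 to 0.50. Of the 6 targets in this group, 1 (Mylip) had libraries that did not overlap between genotypes, against 22.9% of all genes.

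Of the 6 genes of fatty acid synthesis, 2 were above 0 and 4 below, with a median of -0.07. The stearoyl-CoA desaturases, which turn saturated into monounsaturated fatty acids, had log2 changes of opposite sign. Both genes lie on chromosome 19, Scd1 at 44394455 to 44407879 on the minus strand and Scd2 at 44293674 to 44306864 on the plus strand. Scd2 held 2974, 2732 and 1862 normalised counts in WT and 1132, 1542 and 1536 in KO. All KO libraries were below all WT libraries, and the log2 change was -0.83 (SE 0.224, 95% interval -1.34 to -0.33). It had the smallest p of the 33 members (unadjusted p = 0.0045), and it did not pass after adjustment (limma adjusted p = 0.0882). DESeq2 on the recovered reads, which called 9.02% of genes, called Scd2 with a log2 change of -0.88 (DESeq2 adjusted p = 0.0111) and no other member.

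Scd1 held 7940, 5745 and 4822 in WT and 9553, 9627 and 7388 in KO. KO libraries 1 and 2 were above all WT libraries and KO library 3 was below WT library 1, for a log2 change of 0.54 (SE 0.241, unadjusted p = 0.050, limma adjusted p = 0.278). Per kilobase, Scd1 stood at 3.01, 2.37 and 2.92 times Scd2 in the WT libraries, a mean of 2.77 ± 0.346 (SD, n = 3). In the KO libraries it stood at 9.52, 7.05 and 5.43 times Scd2, a mean of 7.34 ± 2.06 (SD, n = 3). All 3 KO ratios were above all 3 WT ratios. This ratio was singled out after its values were seen, and no test is given for it. Scd1 is abundant in hepatocytes, whose summed markers were 14355 to 47974 in WT and 67295 to 120665 in KO, and the part of hepatocyte RNA in the ratio was not tested. The sources used here do not say how reads matching both genes were counted.

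**Figure D4:**
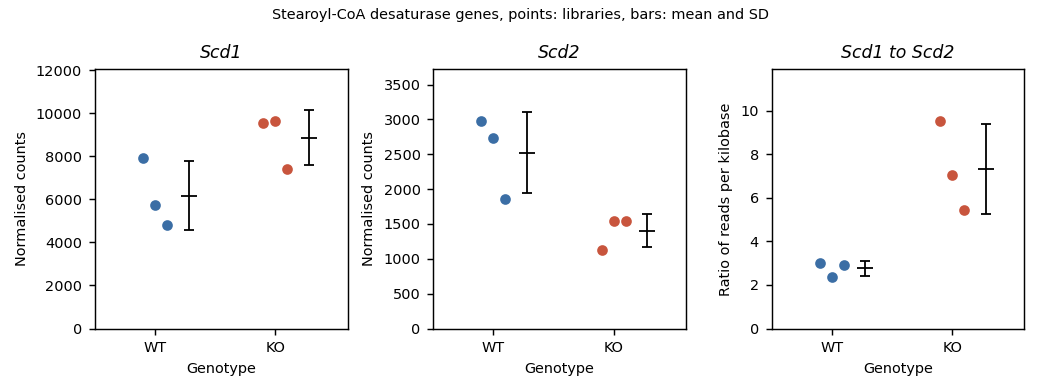
Normalised counts of Scd1 (left) and Scd2 (middle), and the ratio of Scd1 to Scd2 reads per kilobase (right), in the 3 WT and 3 KO libraries; points are libraries and bars the mean and SD. The Scd1 points overlap between groups, the Scd2 points do not, and the ratio is 2.37 to 3.01 in WT and 5.43 to 9.52 in KO.

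For the other 4 enzymes of fatty acid synthesis the WT and KO libraries overlapped. Fasn, fatty acid synthase, held 1265, 1670 and 1904 in WT and 2604, 1712 and 1416 in KO. KO library 1 was the highest of the 6, and the log2 change was 0.22 (SE 0.253, adjusted p = 0.719 by limma). Acly ranged from 4015 to 4387 in WT and from 3804 to 4534 in KO, with a log2 change of -0.04 and a 95% interval of -0.42 to 0.34, the narrowest of the members. Acaca, acetyl-CoA carboxylase, ranged from 179 to 259 and from 157 to 259, with a log2 change of -0.09. Elovl6, the elongase of palmitate, ranged from 150 to 197 and from 98.9 to 226, with a log2 change of -0.21.

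The 3 KO libraries did not hold the same order across the roles, and these orders are a description with no test. KO library 1 was the highest of the KO libraries for 5 of the 6 mevalonate genes, and KO library 3 the lowest for all 6. KO library 3 was also the lowest for all 3 sensing and transport genes. For 4 of the 7 genes of LXR and its targets (Abca1, Abcg1, Mylip and Pltp) KO library 3 was instead the highest, against 29.6% of all genes. It was the lowest for 2 of these 7. Over the 33 members KO library 3 was the lowest KO library for 18 (54.5%), against 32.6% of all genes. KO library 1 was the highest for 14 (42.4%), against 43.7% of all genes. The mean log2 level of the 6 mevalonate genes, relative to the WT mean, was -0.06 to 0.11 in WT and -0.40 to 0.35 in KO. In the same libraries the mean for hepatocyte markers was -0.52 to 0.29 in WT and 1.52 to 2.28 in KO.

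**Figure D5:**
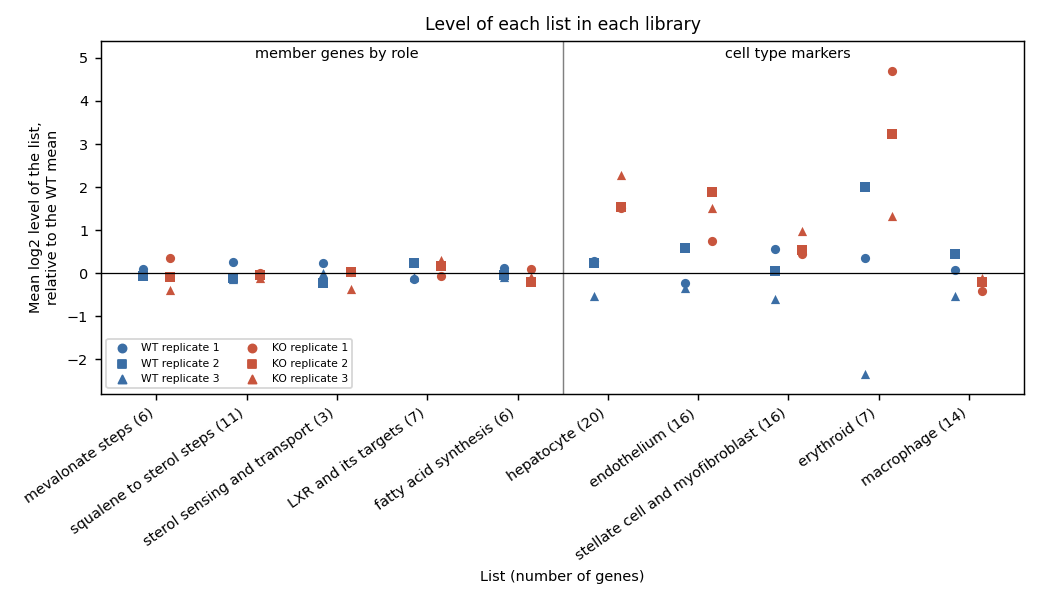
Mean log2 level of each role group of members (left) and of 5 lists of cell type markers (right) in each library, relative to the WT mean, with the number of genes in brackets. The member groups stay between -0.40 and 0.35 in every library, while the hepatocyte markers reach 1.52 to 2.28 in KO.

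A further 45 genes of these pathways were read from the same fit. Of these 26 were above 0, against 54.2% of all genes. The median log2 change was 0.08, and 1 passed, against 2.44% of all genes. The gene that passed was Apoc1, an apolipoprotein of the LXR partner and target list, which held 2398, 2620 and 1449 in WT and 4072, 4748 and 5706 in KO. Every KO library was above every WT library, for a log2 change of 1.20 (SE 0.251, adjusted p = 0.0463 by limma). It did not pass with edgeR's test (edgeR adjusted p = 0.0640). Apoc1 is abundant in hepatocytes, and the part of the hepatocyte RNA in this value was not tested. Of the rest of its 7-gene list, Arl4c, a small GTPase, had a log2 change of -0.54 (limma adjusted p = 0.256) and Lpl, lipoprotein lipase, held 5885 ± 3342 normalised counts in WT and 11213 ± 5694 in KO (SD, n = 3 each, limma adjusted p = 0.330).

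The 17 other genes of fatty acid and glyceride synthesis had 13 members above 0 and a median of 0.38, and 0 passed. Of these, 5 had an unadjusted p under 0.05, all higher in KO, against 18.0% of all genes at this level and 12.1% higher. The groups did not overlap in 6 of the 17, against 22.9% of all genes. Me1, Slc25a1, Fads2 and Agpat2 were higher in KO (13.7% of all genes), and Elovl5 and Elovl7 lower (9.25% of all genes). Fads2, Agpat2, Elovl5 and Elovl7 are named after their values were seen. Their limma adjusted p was 0.109 for Fads2, 0.467 for Agpat2, 0.553 for Elovl5 and 0.726 for Elovl7, which had 17 to 62 reads per library. Slc25a1, the mitochondrial citrate carrier, held 553, 580 and 485 in WT and 1091, 821 and 872 in KO, with a log2 change of 0.78 (limma adjusted p = 0.0622). Me1, malic enzyme, which makes NADPH for fatty acid synthesis, held 182, 52.5 and 73.6 in WT and 529, 241 and 240 in KO, or 103 ± 69.7 and 337 ± 167 (SD, n = 3 each, limma adjusted p = 0.0871). Both passed with DESeq2 on the recovered reads (DESeq2 adjusted p = 0.00699 for Slc25a1 and 0.0123 for Me1). That fit called 9.02% of all genes. The groups overlapped for Acly, Acaca and Fasn. The medians of the hepatocyte, endothelial, stellate cell, cholangiocyte and erythroid markers were also above 0, as given above. The part of these cells in the values of this list was not tested.

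The remaining lists of other pathway genes gave 0 passing. Of 9 genes of sterol and isoprenoid synthesis and SREBP processing, 5 were above 0 with a median of 0.00. Acat2, which makes acetoacetyl-CoA for the mevalonate route, had a log2 change of 0.76 (limma adjusted p = 0.336) and Dhdds, of dolichol synthesis, -0.20 (limma adjusted p = 0.622). Of 12 genes of cholesterol esters, oxysterols and transport, 4 were above 0 with a median of -0.07. The largest log2 changes there were those of Abcg5 and Abcg8, which together form the sterol exporter of hepatocytes and gut cells. Abcg5 gave 2.08 (limma adjusted p = 0.213) and Abcg8 1.44 (limma adjusted p = 0.245), from 2 to 39 and 10 to 70 reads per library.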

How the data were processed

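RNA-seq libraries of 3 WT and 3 KO samples were compared, grouped by the labels' titles and genotype. Each deposited file holds 1 library as a signal for 79382 Ensembl transcripts, which per the file headers is a normalised count. Dividing each value by the smallest nonzero one of its library gave whole numbers in 100% of cases (tolerance 0.001), so the authors' signal is a read count divided by 1 factor per library, and whole reads were recovered. Libraries were made from polyA RNA with a stranded kit, per the labels' protocols. STAR 2.4.0k, HTSeq 0.5.3, DESeq 1.8.3, SAMtools and bcl2fastq 2.17, and the build GRCm38.p4, are listed in the submitters' processing notes with no roles. The annotation release, strand setting and handling of multiple matches could not be read from the sources used here.

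Transcripts were matched to GENCODE genes of GRCm38 (78332 matched, 1050 did not, at 1.03% to 1.32% of reads), and the transcript of highest mean over 6 libraries was kept for each of 23394 genes, since isoforms often held nearly equal values. The low-value filter was edgeR's filterByExpr with recovered reads as input (15619 genes tested, 7775 not). The test was limma 3.58.1 with a trended prior on log2(value + 1), two-sided, with genotype as the only term and Benjamini-Hochberg adjustment over all genes tested. Changes on this scale understate those of low genes. edgeR 4.0.16 and DESeq2 1.42.0 were run on the recovered reads as alternatives, in R 4.3.3, beside other factors, pseudocounts, filters, transcript sums, a replicate block and each library left out. On data simulated for KO against WT over 15619 genes, the recovery by limma was 26% for a true log2 change of 1, 74% for 2, 88% for 3 and 92% for 4 (50 genes each), and 0.0324% of the 15419 genes left alone were called.

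The members and lists were chosen with earlier results of these data known. Library values are given for passing members and for the 3 of smallest p in each role, and other pathway genes are named where they passed or were among the next 2 of smallest p. Hmgcs1, Abca1 and the overlap notes were singled out after their values were seen. 1 of 8 erythroid markers did not match. Some genes of these pathways are not reported here. The 95% intervals come from limma and cover counting error together with the spread between libraries.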

Additional observations from a re-analysis of the deposited data

How the results depend on the processing

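The members' count of 0 held under edgeR, limma-voom, other factors, other pseudocounts, other filters and sums of transcripts. It was 1 with DESeq2 (Scd2), which called 1409 genes (959 higher, 450 lower), and 0 to 1 with each library left out, the 1 being Mylip without KO replicate 1. Over all genes, summing all transcripts gave 233 calls, limma-voom 334 (252 higher, 82 lower), and leaving out a library 8 (without KO replicate 3) to 809 (without KO replicate 1). The cause was not tested. Among the 45 other pathway genes, 3 passed with DESeq2 (Apoc1, Me1 and Slc25a1), 0 with edgeR (either set of factors), limma-voom, limma with TMM factors, no filter on low values or summed transcripts, and 0 to 2 with a library left out. Apoc1 had an adjusted p of 0.0344 to 0.177 with a library left out. A paired analysis, with the replicate number as a block, called 539 genes, 0 members and 1 other pathway gene (Me1 in place of Apoc1). Deviations of same-numbered libraries correlated at -0.01, 0.09 and -0.14, and those of differently numbered libraries at -0.13 to 0.14. With 3 libraries per group, these values cannot settle whether the numbers pair the libraries.

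The sign of 18 members depended on single libraries. With each library left out in turn the log2 change ran from -0.12 to 0.46 for Hmgcs1, -0.062 to 0.26 for Mvk, -0.52 to 0.17 for Fdps, -0.41 to 0.072 for Fdft1, -0.28 to 0.017 for Lss, -0.10 to 0.31 for Hsd17b7, -0.030 to 0.27 for Sc5d, -0.16 to 0.15 for Dhcr7 and -0.19 to 0.047 for Srebf2. It ran from -0.29 to 0.47 for Abca1, -0.19 to 0.11 for Abcg1, -0.0059 to 0.23 for Lpcat3, -0.29 to 0.086 for Pltp, -0.25 to 0.15 for Srebf1, -0.11 to 0.016 for Acly, -0.26 to 0.12 for Acaca, -0.030 to 0.41 for Fasn and -0.52 to 0.070 for Elovl6. The other 15 members kept their sign, Scd2 at -1.04 to -0.68 and Sqle at -1.09 to -0.57 with a library left out. With all libraries kept, summing transcripts gave Srebf1 0.0051, and 32 members held their sign in every setting. Sizes could still move there, with -0.52 to -0.19 for Elovl6, -0.28 to -0.091 for Acaca and 0.13 to 0.30 for Stard4. Idi1 had the fewest reads of the members, 13 to 57 per library.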
